A study of Mus musculus with 9 samples.

Results

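The 32 genes described here mark macrophages and monocytes, and were read from RNA of plasma cells taken from mouse spleen with beads against CD138. They were matched by symbol to a list of 32 names, and are 32 of the 46958 genes in the count table. All 32 passed the filter on low counts and are among the 14199 genes tested. Their roles are lineage receptors and general macrophage markers (4 genes), red pulp (5), complement C1q (3), marginal zone (2), clearance receptors and lipid carrier (3), Fc receptors with their adaptors (4), lysosome enzymes (2), microbe sensors (5), and monocyte chemokine receptors and integrins (4).

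Each of the 9 libraries held the CD138-positive cells of 1 spleen, so that each is a different mouse, with 3 mice in each of 3 genotypes. All mice were 3 months old, had not been immunized and were of the mixed strain C57/BL6x129/SVxBALB/c. The groups were wild type (WT), DH-LMP2A, and kFRA, whose label also carries LCDD (light chain deposition disease, in which a monoclonal light chain is deposited in tissue). LMP2A is a membrane protein of the Epstein-Barr virus that can stand in for signals of the B cell receptor, and the alleles are not described further in the labels. The stated purity was above 80%, which leaves room for other spleen cells in every library.

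Macrophages of the splenic red pulp take up old red cells and recycle their iron. They depend on the receptor Csf1r for survival and on the transcription factors PU.1 and Spi-C for their identity, and carry F4/80 and Vcam1 on their surface. Marginal zone macrophages catch blood-borne particles with receptors such as Marco, and the metallophilic macrophages of that zone carry Siglec1. Monocytes patrol the blood and carry Ccr2 or Cx3cr1. Plasma cells lie in the red pulp close to such cells.

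Total counts per library ran from 15449026 to 21558128, at which 3 counts, the floor of detection used here, correspond to 0.139 to 0.194 CPM (counts per 1e6 counted reads). Levels are CPM after TMM scaling, which sets libraries to a common level from the bulk of their genes. Differences are log2 fold changes with a standard error (SE), and edgeR gave 2-sided p-values, adjusted over all 14199 genes for the false discovery rate and called under 0.05. Plasma cell markers (7 genes, among them Sdc1, which encodes CD138, Prdm1 and Xbp1) were detected in every library. Their summed levels were 33812.5 to 46697 CPM in DH-LMP2A, 20079 to 31774 CPM in kFRA and 18651 to 23936 CPM in WT. Every DH-LMP2A library was above every WT library in this sum, and kFRA overlapped WT. DH-LMP2A replicate 3 and kFRA replicate 2 stood apart from the other libraries of their genotypes. DH-LMP2A replicate 3 had the highest summed erythroid markers of its genotype (13658 CPM against 2579 and 2685 CPM) and kFRA replicate 2 the lowest summed plasma cell markers of its genotype (20079 CPM against 30129 and 31774 CPM). Counts of members are therefore also given without these 2 libraries. Both are the only library of their sex in their genotype by Xist and Ddx3y, which are expressed from the X and the Y chromosome. The same holds for WT replicate 2, which was kept. The WT libraries were not alike either. By chi-square per degree of freedom of their counts, pairs of WT libraries were at 118 to 179. Pairs with DH-LMP2A replicate 3 were at 65.4 and 66.7, and pairs with kFRA replicate 2 at 105 and 151.

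Every member was detected in every library, the lowest value being 5 counts of Ccr2 in a kFRA library. Per kilobase of exon, the members with the highest mean levels in WT were Apoe (759 CPM per kb), C1qb (599), C1qa (562), Ctss (474) and Lyz2 (468). In DH-LMP2A and kFRA the first place was taken by Ctss, at 634 and 643 CPM per kb, and Apoe was at 192 and 174 CPM per kb. The lowest level per kilobase in each genotype was that of the blood monocyte receptor Ccr2 (0.103 to 0.321 CPM per kb). Next came Cx3cr1 in DH-LMP2A (0.351) and WT (2.52), and in kFRA Itgam (0.432), Cx3cr1 (0.821) and Clec7a (0.829). Ccr2, the defining receptor of classical monocytes, was low but above the floor of 0.139 to 0.194 CPM, at 0.342 to 3.66 CPM. The members were not ranked among all genes.

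Summed over the 32 genes, the level was 6300, 7640 and 3131 CPM in DH-LMP2A replicates 1 to 3, 5199, 7693 and 5230 CPM in kFRA, and 13752, 10473 and 8676 CPM in WT. Every WT library lay above every library of the other genotypes. The same held when immunoglobulin counts were left out of the totals, with 15155 to 23526 CPM in WT, 4877 to 12263 CPM in DH-LMP2A and 8562 to 13280 CPM in kFRA. When libraries were scaled by their total alone the groups overlapped, with 6758 to 13275 CPM in WT, 3292 to 8908 CPM in DH-LMP2A and 4678 to 9400 CPM in kFRA. In bulk samples, fewer cells of a type and less RNA per cell cannot be told apart.

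**Figure D1:**
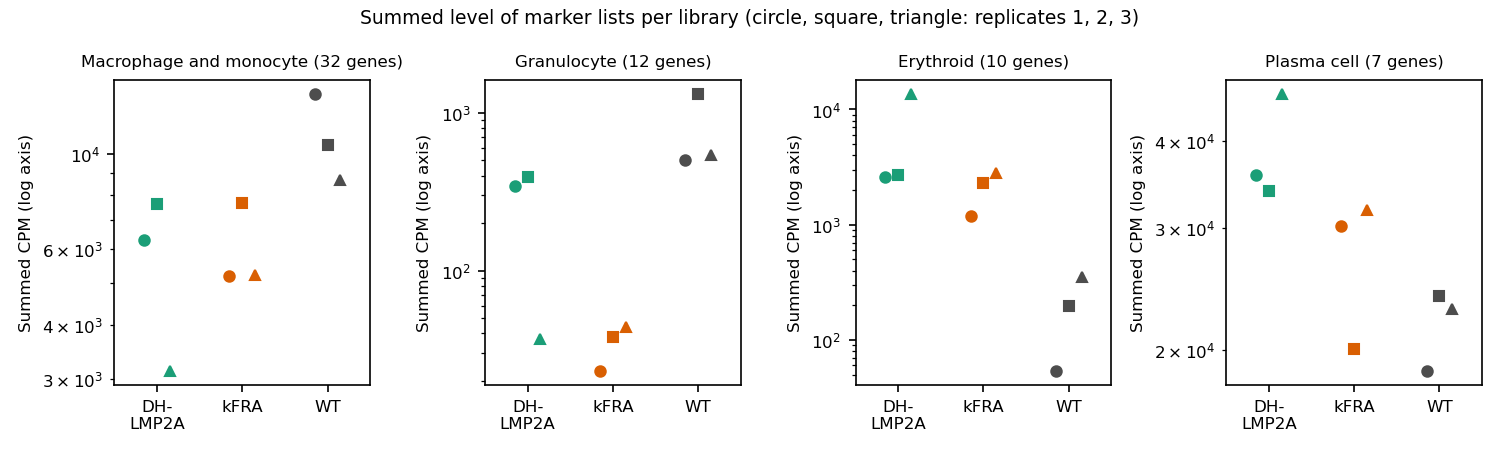
Summed TMM-scaled CPM (log axes) of the 32 macrophage and monocyte genes and of the granulocyte, erythroid and plasma cell marker lists, 1 point per library, with circle, square and triangle for replicates 1, 2 and 3. The WT libraries lie highest in the first panel (8676 to 13752 CPM) and lowest in the erythroid panel, and DH-LMP2A replicate 3 lies lowest of all in the first panel (3131 CPM).

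Most members had their highest value in the same library of a genotype. In DH-LMP2A, replicate 2 was the highest library for 28 of the 32 genes and replicate 3 the lowest for 30. In kFRA, replicate 2 was highest for 28, while the lowest place was split between replicate 1 (17) and replicate 3 (13). In WT, replicate 1 was highest for 24 and replicate 3 lowest for 24. The same counts were not made over all genes, so whether this order is particular to the members was not tested. Calls of the members are not taken as independent of each other.

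**Figure D2:**
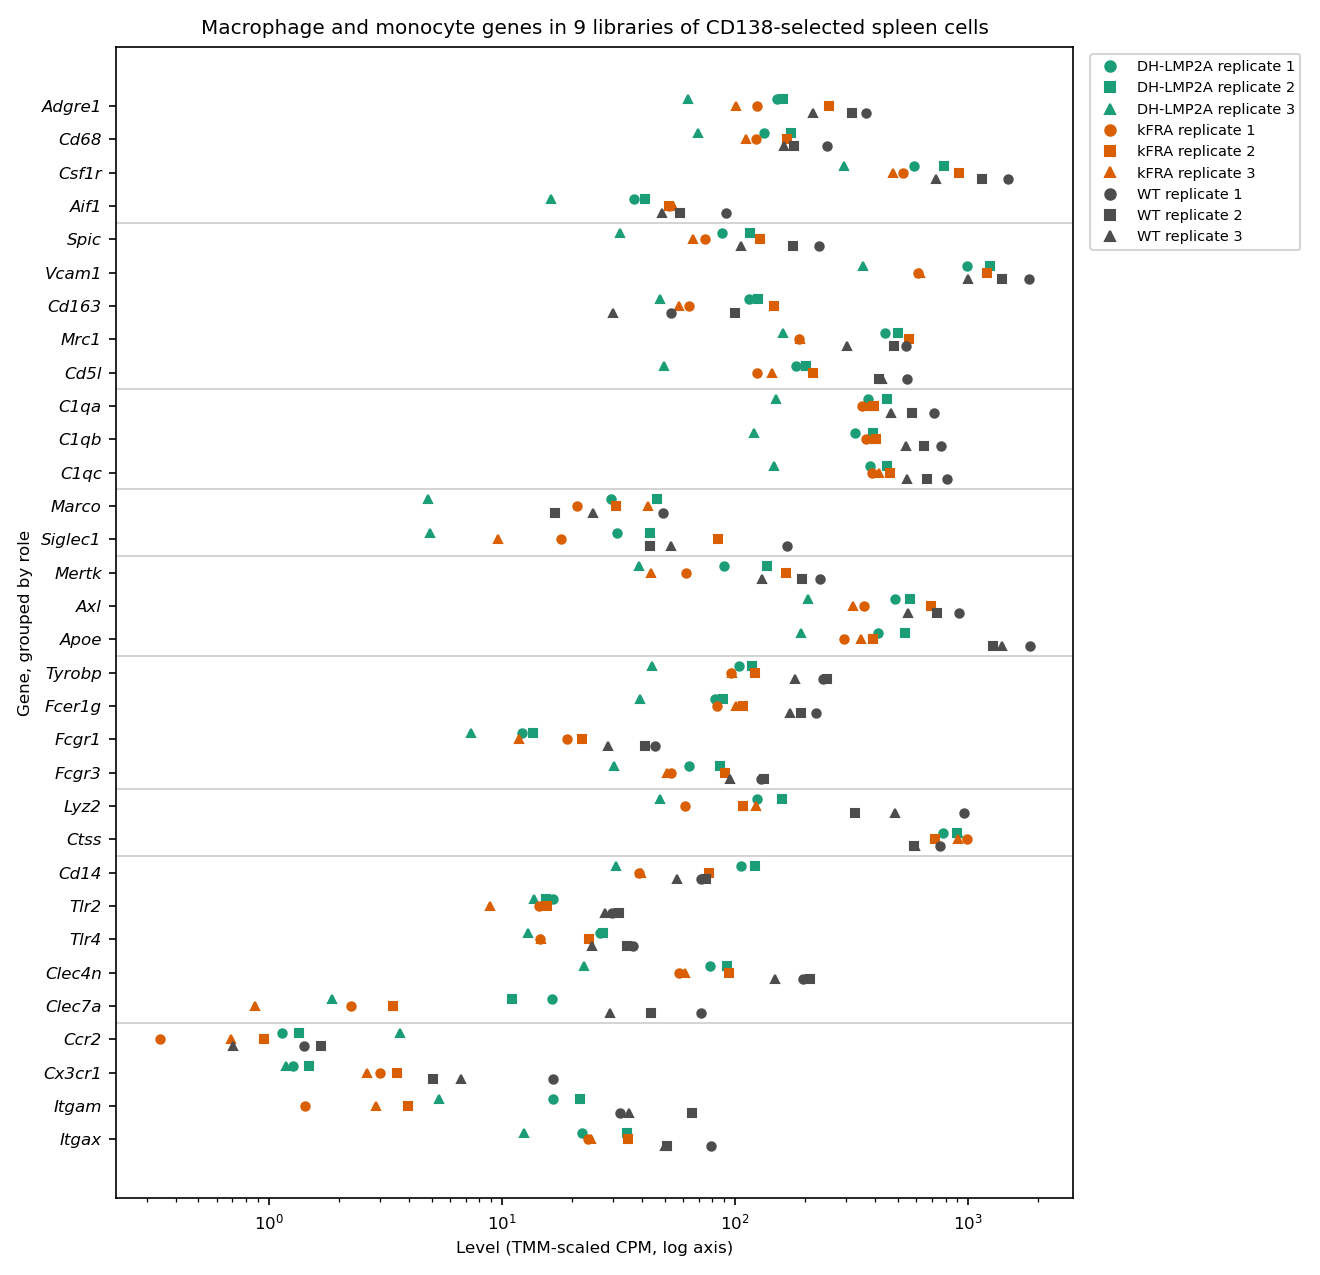
Level of each of the 32 genes (TMM-scaled CPM, log axis) in the 9 libraries, grouped by role, with color for the genotype and shape for the replicate number. For Apoe, Lyz2, Tlr2 and Itgam all WT libraries lie to the right of all others, while Ctss and Cd163 do not follow this order.

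Compared with WT, no member was called higher in kFRA and 10 were called lower, in a background where 6.68% of all tested genes were called higher and 11.1% lower. These 10 were Cd5l, Apoe, Tyrobp, Fcer1g, Fcgr1, Lyz2, Tlr2, Clec7a, Cx3cr1 and Itgam. The median log2 fold change of the members was −0.91, with 29 of 32 below 0, against −0.04 for all genes tested. In DH-LMP2A no member was called higher than in WT (background 5.07%) and 9 were called lower (background 7.3%). They were Cd5l, Apoe, Tyrobp, Fcer1g, Fcgr1, Lyz2, Tlr2, Cx3cr1 and Itgax, and the median was −1.07, with 28 of 32 below 0, against −0.01 for all genes. These comparisons use the same WT libraries, so that their likeness is not a finding of its own. With libraries scaled by their total alone, 5 members were called lower in kFRA (Apoe, Lyz2, Tlr2, Clec7a and Itgam, background 6.46%) and 4 in DH-LMP2A (Apoe, Fcgr1, Lyz2 and Cx3cr1, background 3.65%). Ctss was called higher in both (0.61 and 0.75, backgrounds 16.6% and 14.5%). That scaling moved the median of all genes by 0.21 and 0.34 on the log2 scale and turned the balance of calls around, to 2363 higher and 917 lower genes in kFRA (948 and 1575 with TMM) and 2053 higher and 518 lower in DH-LMP2A (720 and 1036 with TMM).

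Between kFRA and DH-LMP2A no member was called higher in kFRA (background 1.73%) and 1, Itgam, was called lower (background 3.3%). The median log2 fold change of the members was 0.13, with 21 of 32 above 0, against −0.005 for all genes. This comparison tests whether the differences from WT differ between the 2 other genotypes, and for 31 of 32 members no such difference was detected with 3 mice each.

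Without DH-LMP2A replicate 3 and kFRA replicate 2, a fit chosen after seeing the data, 26 members were lower in kFRA than in WT (background 22.2%) and 1, Ctss, was higher (background 18.7%). In DH-LMP2A against WT, 13 were lower (background 8.12%) and 1, Cd14, was higher (background 4.99%). In kFRA against DH-LMP2A, 6 were lower (background 10.9%), namely Mrc1, Mertk, Cd14, Tlr4, Clec7a and Itgam. The libraries left in this last comparison also differ in sex. Xist was at 924 and 882 CPM in those of DH-LMP2A and at 1.30 and 3.14 CPM in those of kFRA. Genotype and sex therefore cannot be told apart in it. The genotypes compared in these fits have 2 mice each, except WT with 3. Of the libraries left out, kFRA replicate 2 was the highest of its genotype for 28 members and DH-LMP2A replicate 3 the lowest for 30. Leaving them out thus lowers most kFRA means and raises most DH-LMP2A means by construction. These counts are therefore not support for the main calls.

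**Figure D3:**
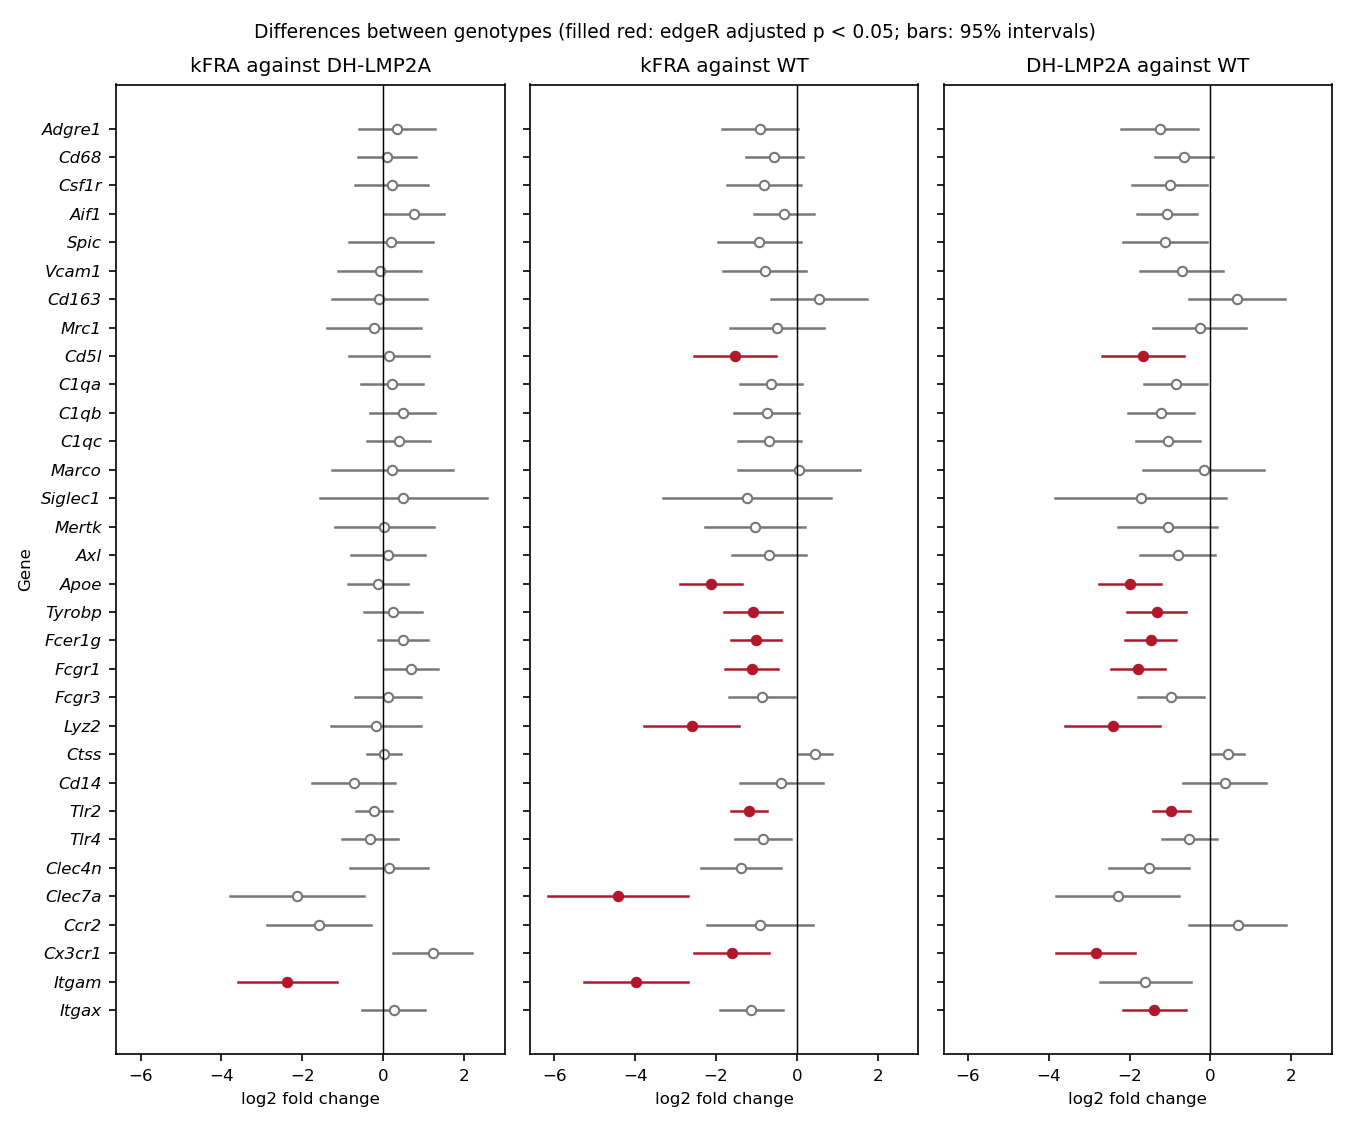
Log2 fold change of each member with its 95% interval in the 3 comparisons, filled red where the edgeR adjusted p was under 0.05 and open gray otherwise. Red points number 1 for kFRA against DH-LMP2A, 10 for kFRA against WT and 9 for DH-LMP2A against WT, and all of them lie below 0.

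The promoters of the members were read to see what they share beyond their expression. RefSeq windows on GRCm38.p6, each from 250 bases before to 50 bases after a start of transcription, were matched by symbol for 23 of the 32 members. The core of the binding motif of PU.1, GAGGAA on either strand, was present in 14 of these 23 windows (60.87%), against 28.28% of all 32851 windows. The TATA box letters TATAAA on either strand were present in 2 of 23 (8.696%), against 13.62% of all windows. A match of letters is a description, not a bound site, and windows without a match say nothing about the factor.

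Shown are the 250 bases before the start, read along the gene, for a C1q gene, for Cd5l, Clec7a and Itgam, each called lower than WT in at least 1 comparison below, and for Cd163, whose mean was not lowest outside WT. Capitals mark GAGGAA, or TTCCTC where it lies on the other strand. They lie on GRCm38.p6 at chr4:136886201-136886450 (minus strand) for C1qb, chr3:87357631-87357880 (plus) for Cd5l, chr6:129472780-129473029 (minus) for Clec7a, chr7:128062390-128062639 (plus) for Itgam and chr6:124304401-124304650 (plus) for Cd163.
C1qb: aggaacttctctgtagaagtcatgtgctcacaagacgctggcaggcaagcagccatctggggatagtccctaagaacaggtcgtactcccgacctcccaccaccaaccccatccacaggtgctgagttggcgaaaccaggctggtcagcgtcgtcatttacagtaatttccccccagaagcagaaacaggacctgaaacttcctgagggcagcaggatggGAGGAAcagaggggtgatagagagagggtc
Cd5l: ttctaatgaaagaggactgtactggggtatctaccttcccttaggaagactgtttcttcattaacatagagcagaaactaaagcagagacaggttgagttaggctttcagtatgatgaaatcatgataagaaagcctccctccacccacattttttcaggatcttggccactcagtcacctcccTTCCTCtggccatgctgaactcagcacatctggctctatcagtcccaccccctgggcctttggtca
Clec7a: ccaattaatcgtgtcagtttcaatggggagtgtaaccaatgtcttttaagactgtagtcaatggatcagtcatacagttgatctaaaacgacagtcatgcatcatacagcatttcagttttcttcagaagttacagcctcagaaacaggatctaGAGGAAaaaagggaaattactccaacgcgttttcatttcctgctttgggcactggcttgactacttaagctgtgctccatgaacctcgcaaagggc
Itgam: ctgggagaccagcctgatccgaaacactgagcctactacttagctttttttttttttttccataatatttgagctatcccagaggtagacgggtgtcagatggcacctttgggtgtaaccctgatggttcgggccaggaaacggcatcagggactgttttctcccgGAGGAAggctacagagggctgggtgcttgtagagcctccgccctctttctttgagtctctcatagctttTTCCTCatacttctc
Cd163: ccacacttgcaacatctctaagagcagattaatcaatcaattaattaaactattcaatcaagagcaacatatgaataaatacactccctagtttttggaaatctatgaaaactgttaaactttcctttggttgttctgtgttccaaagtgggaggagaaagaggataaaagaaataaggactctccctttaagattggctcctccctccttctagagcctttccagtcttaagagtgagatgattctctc
The first base of the motif lies 30 bases before the start in C1qb, 66 in Cd5l, 96 in Clec7a, and 84 and 15 in Itgam, and the Cd163 stretch holds none. The stretches shown are examples and do not stand for all called members. Fcer1g, Lyz2, Tlr2, Cx3cr1 and Itgax, also called lower than WT in at least 1 comparison, hold no such motif before their start. Ctss and Marco hold it and were not called in any comparison. PU.1 itself is encoded by Spi1, which B-lineage cells express at a lower level than macrophages. Spi1 was at 41.0, 42.6 and 32.4 CPM in DH-LMP2A, 37.3, 40.7 and 39.7 CPM in kFRA and 76.6, 88.2 and 62.3 CPM in WT, without overlap of WT with either. It was lower in kFRA (−0.95, edgeR adjusted p = 0.00422) and in DH-LMP2A (−0.97, edgeR adjusted p = 0.0044). Whether Spi1 has a part in the lower members was not tested. In these bulk samples its level cannot be told apart from the content of macrophages.

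Among the lineage receptors and general markers, none of the 4 genes passed in any comparison. Csf1r, the receptor for the growth factor CSF1 on which macrophages depend, was at 584, 786 and 292 CPM in DH-LMP2A, 528, 914 and 478 CPM in kFRA and 1481, 1143 and 725 CPM in WT. The lowest WT library lay below the highest library of each other genotype. The log2 fold change was −0.80 (edgeR adjusted p = 0.189) in kFRA and −1.01 (edgeR adjusted p = 0.148) in DH-LMP2A against WT. Adgre1, which encodes F4/80, was at 151, 162 and 63.1 CPM in DH-LMP2A, 124, 252 and 101 CPM in kFRA and 363, 318 and 217 CPM in WT. All DH-LMP2A libraries lay below WT, but neither comparison passed (edgeR adjusted p = 0.089 for DH-LMP2A and 0.156 for kFRA). The lysosomal protein Cd68 ranged from 69.6 to 248 CPM over the 9 libraries and the calcium-binding protein Aif1 from 16.3 to 91.2 CPM. Csf1r values are uncertain because its exons overlap Hmgxb3 on the opposite strand and the strand setting of the count is not given in the sources used here.

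Of the 5 red pulp genes, Cd5l was called in both comparisons with WT. Coordinates are on GRCm38. Cd5l (chromosome 3, 87357881 to 87371073) encodes AIM, a secreted protein of tissue macrophages that keeps them alive. It was at 183, 202 and 49.8 CPM in DH-LMP2A, 124, 215 and 144 CPM in kFRA, and 546, 415 and 427 CPM in WT. WT stood above both other genotypes without overlap, by 2.87-fold against kFRA (−1.52 on the log2 scale, with an SE of 0.449 and an edgeR adjusted p = 0.0449) and 3.19-fold against DH-LMP2A (−1.67, SE 0.451, edgeR adjusted p = 0.0409). The kFRA call held only without kFRA replicate 2 among the 6 fits that each left out a kFRA or WT library (edgeR adjusted p = 0.0728 to 0.151 in the other 5), and it was also lost without DH-LMP2A replicate 1 (0.0625) or 2 (0.0519). The DH-LMP2A call was lost without DH-LMP2A replicate 1 or any 1 of the WT libraries (edgeR adjusted p = 0.0707 to 0.107), and without kFRA replicate 1 (0.0564) or 3 (0.0541).

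The other red pulp genes did not pass. Spic, the transcription factor that defines red pulp macrophages, was at 88.3, 115 and 32.1 CPM in DH-LMP2A, 74.6, 129 and 65.9 CPM in kFRA and 228, 177 and 106 CPM in WT, and the groups overlapped. Vcam1, an adhesion molecule on red pulp macrophages and stroma, had the highest CPM of the group (353 to 1826 CPM over all libraries). Its exons overlap Gm43109 on the opposite strand, so these values carry the same doubt as those of Csf1r. The mannose receptor Mrc1 ranged from 161 to 559 CPM. Cd163, the scavenger receptor for hemoglobin bound to haptoglobin, went the other way in its mean, with 115, 126 and 47.5 CPM in DH-LMP2A, 63.3, 147 and 57.8 CPM in kFRA and 53.0, 100.1 and 30.0 CPM in WT. These values overlapped, and neither difference passed (0.65 for DH-LMP2A, edgeR adjusted p = 0.493, and 0.55 for kFRA, edgeR adjusted p = 0.471).

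The 3 genes of complement C1q, whose A, B and C chains form the molecule that starts the classical pathway, lie side by side on chromosome 4 (136880129 to 136898803). C1qa was at 372, 448 and 150.5 CPM in DH-LMP2A, 351, 396 and 377 CPM in kFRA and 715, 573 and 466 CPM in WT. C1qb was at 328, 389.9 and 121 CPM in DH-LMP2A, 366, 405 and 399 CPM in kFRA and 766, 645 and 544 CPM in WT. All 3 genes were highest in the WT libraries, without overlap with either other genotype. None passed the test, with log2 fold changes of −0.64 to −0.74 in kFRA against WT (edgeR adjusted p = 0.172 to 0.212) and −0.85 to −1.22 in DH-LMP2A against WT (edgeR adjusted p = 0.0578 to 0.151).

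The balance of the chains was steadier than their level. The ratio of C1qb to C1qa was 0.881, 0.870 and 0.803 in DH-LMP2A, 1.04, 1.02 and 1.06 in kFRA, and 1.07, 1.13 and 1.17 in WT. The 3 genotypes did not overlap in this ratio, which was chosen after its values were seen and is given without a test. The ratio of C1qc to C1qa was 0.976 to 1.02 in DH-LMP2A, against 1.105 to 1.165 in kFRA and 1.13 to 1.18 in WT.

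The marginal zone genes varied widely within genotypes. Marco, a scavenger receptor for bacteria, was at 29.4, 46.5 and 4.81 CPM in DH-LMP2A, 20.9, 30.9 and 42.5 CPM in kFRA and 49.1, 16.9 and 24.7 CPM in WT. Siglec1, the sialic acid receptor of metallophilic macrophages, was at 31.3, 43.2 and 4.94 CPM in DH-LMP2A, 17.9, 84.2 and 9.60 CPM in kFRA and 167, 43.0 and 53.0 CPM in WT. Neither gene separated any genotypes. The interval of the Siglec1 difference between kFRA and WT ran from −3.31 to 0.86 on the log2 scale, and that of Marco from −1.45 to 1.56.

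Apoe (chromosome 7, 19696109 to 19699166), the apolipoprotein with which macrophages export cholesterol, had a larger difference than the receptors of its group. It was at 410, 535 and 193 CPM in DH-LMP2A, 294, 393 and 349 CPM in kFRA, and 1833, 1275 and 1403 CPM in WT. The lowest WT library held more than any library of the other genotypes by a wide margin. Apoe was 4.36-fold lower in kFRA (−2.12, SE 0.346, edgeR adjusted p = 0.00365) and 3.96-fold lower in DH-LMP2A (−1.99, SE 0.344, edgeR adjusted p = 0.00578). Both calls were kept whichever 1 of the 6 libraries compared was removed. Mertk and Axl are receptors by which macrophages engulf dying cells, and neither passed, with 38.6 to 233 CPM and 206 to 914 CPM over the 9 libraries.

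Of the 4 Fc receptor genes, 3 were lower than WT in both genotypes. Tyrobp and Fcer1g encode DAP12 and the common gamma chain, adaptors that carry the ITAM signalling motif. Tyrobp was at 104, 118 and 44.0 CPM in DH-LMP2A, 95.8, 122 and 97.2 CPM in kFRA and 239, 248 and 182 CPM in WT. Fcer1g was at 82.2, 88.6 and 39.1 CPM in DH-LMP2A, 83.6, 108 and 101 CPM in kFRA and 223, 192 and 172 CPM in WT. Both adaptors separated WT from the others without overlap. Tyrobp differed from WT by −1.09 in kFRA (SE 0.319, edgeR adjusted p = 0.0445) and by −1.33 in DH-LMP2A (SE 0.321, edgeR adjusted p = 0.0257). Fcer1g differed by −1.003 in kFRA (SE 0.276, edgeR adjusted p = 0.0353) and by −1.48 in DH-LMP2A (SE 0.279, edgeR adjusted p = 0.00866).

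Fcgr1 (chromosome 3, 96282909 to 96293969) encodes CD64, the high-affinity receptor for IgG and a marker of macrophages against dendritic cells. Its levels were 12.2, 13.5 and 7.37 CPM in DH-LMP2A, 19.0, 22.2 and 11.9 CPM in kFRA and 45.3, 41.3 and 28.6 CPM in WT. WT lay above the others without overlap, by 2.17-fold over kFRA (−1.12, SE 0.293, edgeR adjusted p = 0.0294) and 3.48-fold over DH-LMP2A (−1.80, SE 0.298, edgeR adjusted p = 0.00466). Fcgr3, a low-affinity receptor with close relatives in the genome, was lower than WT in all 6 libraries of the other genotypes but did not pass (edgeR adjusted p = 0.121 in kFRA and 0.114 in DH-LMP2A). In kFRA the calls were lost in 5 of 6 fits without a single library for Tyrobp (edgeR adjusted p = 0.0534 to 0.143) and Fcer1g (0.0509 to 0.127), all but the one without kFRA replicate 2. Both were also lost without DH-LMP2A replicate 1 (edgeR adjusted p = 0.0664 and 0.0551). They were lost in 4 for Fcgr1, without kFRA replicate 1 or 3 or WT replicate 1 or 2 (edgeR adjusted p = 0.0801 to 0.0918). In DH-LMP2A those of Fcer1g and Fcgr1 held in all 6, and Tyrobp was lost without DH-LMP2A replicate 1 or WT replicate 1 or 2 (edgeR adjusted p = 0.0564 to 0.0834).

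The lysosome enzymes behaved unlike each other. Lyz2 (chromosome 10, 117277334 to 117282274) encodes the lysozyme of macrophages and granulocytes, which digests bacterial walls. It was at 124, 160 and 47.7 CPM in DH-LMP2A, 61.0, 108 and 123 CPM in kFRA, and 962, 327 and 487 CPM in WT. The lowest WT value was above the highest of the others, although the WT libraries themselves spread widely. Lyz2 was 6.08-fold lower in kFRA (−2.60, SE 0.526, edgeR adjusted p = 0.0101) and 5.36-fold lower in DH-LMP2A (−2.42, SE 0.522, edgeR adjusted p = 0.0159). The DH-LMP2A call was lost without DH-LMP2A replicate 1 (edgeR adjusted p = 0.0554). Lyz2 has a close neighbor in sequence, Lyz1, and its counts are uncertain to that extent.

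Ctss, a protease for antigen processing that B cells also make, was at 783, 895 and 907 CPM in DH-LMP2A, 991, 720 and 908 CPM in kFRA and 754, 586 and 590 CPM in WT. DH-LMP2A replicate 3 was the highest library of its genotype, as it was for Ccr2 alone among the other members, and all DH-LMP2A libraries lay above WT. The differences of 0.44 in kFRA and 0.42 in DH-LMP2A did not pass (edgeR adjusted p = 0.125 and 0.184).

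Among the 5 microbe sensors, Tlr2 and Clec7a passed. Tlr2, the receptor for bacterial lipoproteins, was at 16.5, 15.4 and 13.8 CPM in DH-LMP2A, 14.4, 15.7 and 8.91 CPM in kFRA and 29.6, 31.8 and 27.8 CPM in WT. It varied little within DH-LMP2A and WT and more within kFRA, and WT was higher without overlap. It was lower in kFRA by 2.28-fold (−1.19, SE 0.201, edgeR adjusted p = 0.00434) and in DH-LMP2A by 1.95-fold (−0.96, SE 0.198, edgeR adjusted p = 0.0128). Without WT replicate 2 the second of these missed (edgeR adjusted p = 0.0514).

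Clec7a (chromosome 6, 129461591 to 129472779) encodes Dectin-1, the receptor for fungal beta-glucan, and had the largest difference of all members in kFRA against WT. It was at 16.4, 11.0 and 1.88 CPM in DH-LMP2A, 2.26, 3.43 and 0.878 CPM in kFRA, and 71.3, 43.5 and 29.2 CPM in WT. WT was far above kFRA, and DH-LMP2A lay between them with 1 library in the kFRA range. The fold was 21.5 in kFRA against WT (−4.43, SE 0.770, edgeR adjusted p = 0.0051), and this call held in each of the 6 fits without 1 library. In DH-LMP2A against WT (−2.29, SE 0.676) it did not pass (edgeR adjusted p = 0.057), nor in kFRA against DH-LMP2A (−2.13, SE 0.732, edgeR adjusted p = 0.137). Without DH-LMP2A replicate 3 both of these passed (edgeR adjusted p = 0.0483 and 0.0202).

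Clec4n, which encodes Dectin-2, was at 78.2, 92.6 and 22.6 CPM in DH-LMP2A, 57.6, 94.1 and 61.3 CPM in kFRA and 196, 211 and 149 CPM in WT. WT was higher without overlap, yet both differences missed the threshold, at −1.38 in kFRA (edgeR adjusted p = 0.0569) and −1.52 in DH-LMP2A (edgeR adjusted p = 0.0528). Cd14, the co-receptor for lipopolysaccharide, was at 106, 122 and 31.0 CPM in DH-LMP2A, 38.7, 77.3 and 39.5 CPM in kFRA and 71.6, 75.3 and 56.3 CPM in WT, and nothing separated. Tlr4, which signals for lipopolysaccharide, reached at most 36.5 CPM and did not pass in any comparison.

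The monocyte receptors and integrins held the only member called between kFRA and DH-LMP2A. Itgam (chromosome 7, 128062640 to 128128160) encodes CD11b, the integrin chain of the complement receptor 3 on monocytes, macrophages and granulocytes. It was at 16.6, 21.6 and 5.35 CPM in DH-LMP2A, 1.44, 3.95 and 2.89 CPM in kFRA, and 32.2, 65.4 and 35.2 CPM in WT. The 3 genotypes did not overlap, with kFRA lowest and WT highest. Itgam was 5.17-fold lower in kFRA than in DH-LMP2A (−2.37, SE 0.546, edgeR adjusted p = 0.0401) and 15.8-fold lower than in WT (−3.98, SE 0.569, edgeR adjusted p = 0.00179). DH-LMP2A against WT did not pass (−1.61, SE 0.4996, edgeR adjusted p = 0.0684).

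The Itgam call against DH-LMP2A was lost without DH-LMP2A replicate 1 or 2, kFRA replicate 1 or 3, or WT replicate 1 or 3 (edgeR adjusted p = 0.0535 to 0.157), while the call against WT held in each of the 6 fits. The call against DH-LMP2A was also lost with libraries scaled by their total alone (edgeR adjusted p = 0.0687). It was lost too with Xist as a covariate (0.0835) and with only the 6 libraries compared (0.0728). Itgam is also a granulocyte gene, and its exons overlap Gm45700 and Gm49368 on the same strand, so its counts are uncertain. The granulocyte list of 12 genes moved in the same comparisons. Its summed level was 343, 390 and 36.9 CPM in DH-LMP2A, 23.0, 37.9 and 44.0 CPM in kFRA and 504, 1320 and 540 CPM in WT, with none of its genes at 0 in every library. Of its 10 genes tested, 2 (S100a8 and Retnlg) were lower in kFRA than in DH-LMP2A (background 3.3%), with a median of −3.34. In kFRA 5 were lower than in WT (background 11.1%), with a median of −3.36. In DH-LMP2A against WT 1, Mpo, was higher (background 5.07%) and none lower (background 7.3%), with a median of −0.45. The part of granulocytes in the Itgam, Clec7a and Lyz2 values was not tested.

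Itgax, which lies next to Itgam on chromosome 7 (128129547 to 128150657) and encodes CD11c, had another pattern. It was at 22.1, 34.5 and 12.4 CPM in DH-LMP2A, 23.3, 34.9 and 24.1 CPM in kFRA and 79.0, 51.2 and 50.3 CPM in WT. WT was higher than both without overlap, and DH-LMP2A and kFRA covered the same range. The difference passed in DH-LMP2A (−1.39, SE 0.348, edgeR adjusted p = 0.0305) and missed in kFRA (−1.13, SE 0.347, edgeR adjusted p = 0.0515). The DH-LMP2A call was lost without DH-LMP2A replicate 1, WT replicate 1 or WT replicate 2 (edgeR adjusted p = 0.059 to 0.1001). Dendritic cells carry CD11c too, and the summed level of the 10 dendritic cell genes was 35.4, 58.7 and 37.0 CPM in DH-LMP2A, 49.2, 57.8 and 66.5 CPM in kFRA and 149, 67.5 and 59.4 CPM in WT, with none at 0 in every library. Of the 8 tested, 6 were below 0 in each comparison with WT, with medians of −0.82 in kFRA and −0.79 in DH-LMP2A. Of all 14199 genes, 7474 and 7230 were below 0. WT replicate 1 had the highest sum. Against WT, 1 gene was called higher and 1 lower in kFRA (backgrounds 6.68% and 11.1%), and 1 was called lower in DH-LMP2A (background 7.3%). Between kFRA and DH-LMP2A, 1 was called higher in kFRA (background 1.73%). The part of dendritic cells in the Itgax values was not tested.

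Cx3cr1, the fractalkine receptor of patrolling monocytes and some macrophages, was low throughout, at 1.27, 1.48 and 1.19 CPM in DH-LMP2A, 3.01, 3.57 and 2.63 CPM in kFRA, and 16.6, 5.05 and 6.69 CPM in WT. The 3 genotypes did not overlap, here with DH-LMP2A lowest. It was 7.16-fold lower than WT in DH-LMP2A (−2.84, SE 0.435, edgeR adjusted p = 0.00316) and 3.06-fold lower in kFRA (−1.62, SE 0.411, edgeR adjusted p = 0.0263). Without WT replicate 1 the kFRA difference was −0.93 and missed (edgeR adjusted p = 0.0528), and it missed without kFRA replicate 1 or 3 as well (0.088 and 0.089). The difference between kFRA and DH-LMP2A was 1.22 and did not pass (edgeR adjusted p = 0.146), but it passed as higher in kFRA without WT replicate 1 (edgeR adjusted p = 0.03). Ccr2, the receptor that brings classical monocytes into tissue, stayed between 0.342 and 3.66 CPM, with DH-LMP2A replicate 3 highest.

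Levels were then set against Csf1r in the same library, which takes out a change that all macrophage genes share. Per 100 CPM of Csf1r, Adgre1 was at 20.6 to 29.9 CPM in all 9 libraries, with overlap of the genotypes. Spic was at 11.0 to 15.1 CPM in DH-LMP2A, 13.8 to 14.1 CPM in kFRA and 14.7 to 15.5 CPM in WT, so that kFRA lay below WT by a small margin. Apoe was at 66.0 to 70.3 CPM in DH-LMP2A and 43.0 to 72.8 CPM in kFRA, against 112 to 193 CPM in WT. Lyz2 was at 16.3 to 21.3 CPM in DH-LMP2A and 11.6 to 25.6 CPM in kFRA, against 28.6 to 67.2 CPM in WT. Cd5l was at 17.1 to 31.4 CPM in DH-LMP2A and 23.4 to 30.1 CPM in kFRA, against 36.3 to 58.9 CPM in WT. These 3 genes stayed below every WT library on this scale in both genotypes. Clec4n did so in kFRA alone, and Fcer1g, Fcgr1, Cx3cr1 and Itgax in DH-LMP2A alone. The share of all genes that separate from WT relative to Csf1r was not computed. Clec7a was at 0.642 to 2.81 CPM in DH-LMP2A, 0.184 to 0.428 CPM in kFRA and 3.80 to 4.81 CPM in WT, so that the 3 genotypes no longer overlapped. Itgam was at 1.83 to 2.85 CPM in DH-LMP2A and 2.17 to 5.72 CPM in WT, which overlapped, and at 0.272 to 0.603 CPM in kFRA, below both.

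The order was the opposite for Cd163 and Cd14, and also for Mrc1, Tlr4, Ctss and Ccr2, each of which was higher relative to Csf1r in all DH-LMP2A libraries than in all WT libraries. Per 100 CPM of Csf1r, Cd163 was at 19.7, 16.0 and 16.3 CPM in DH-LMP2A, 11.98, 16.1 and 12.1 CPM in kFRA, and 3.58, 8.76 and 4.14 CPM in WT. Cd14 was at 18.2, 15.5 and 10.6 CPM in DH-LMP2A, 7.33, 8.46 and 8.26 CPM in kFRA and 4.84, 6.58 and 7.76 CPM in WT. Cd163 relative to Csf1r was thus higher in both other genotypes than in every WT library, and Cd14 was higher in DH-LMP2A than in every library of kFRA and WT. Mrc1 was at 55.0 to 75.4 CPM in DH-LMP2A against 36.6 to 42.2 CPM in WT, and Tlr4 at 3.45 to 4.51 CPM against 2.47 to 3.35 CPM. A ratio shows unequal change of its parts and does not say which of them changed, and the overlap of Csf1r with Hmgxb3 bears on each.

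**Figure D4:**
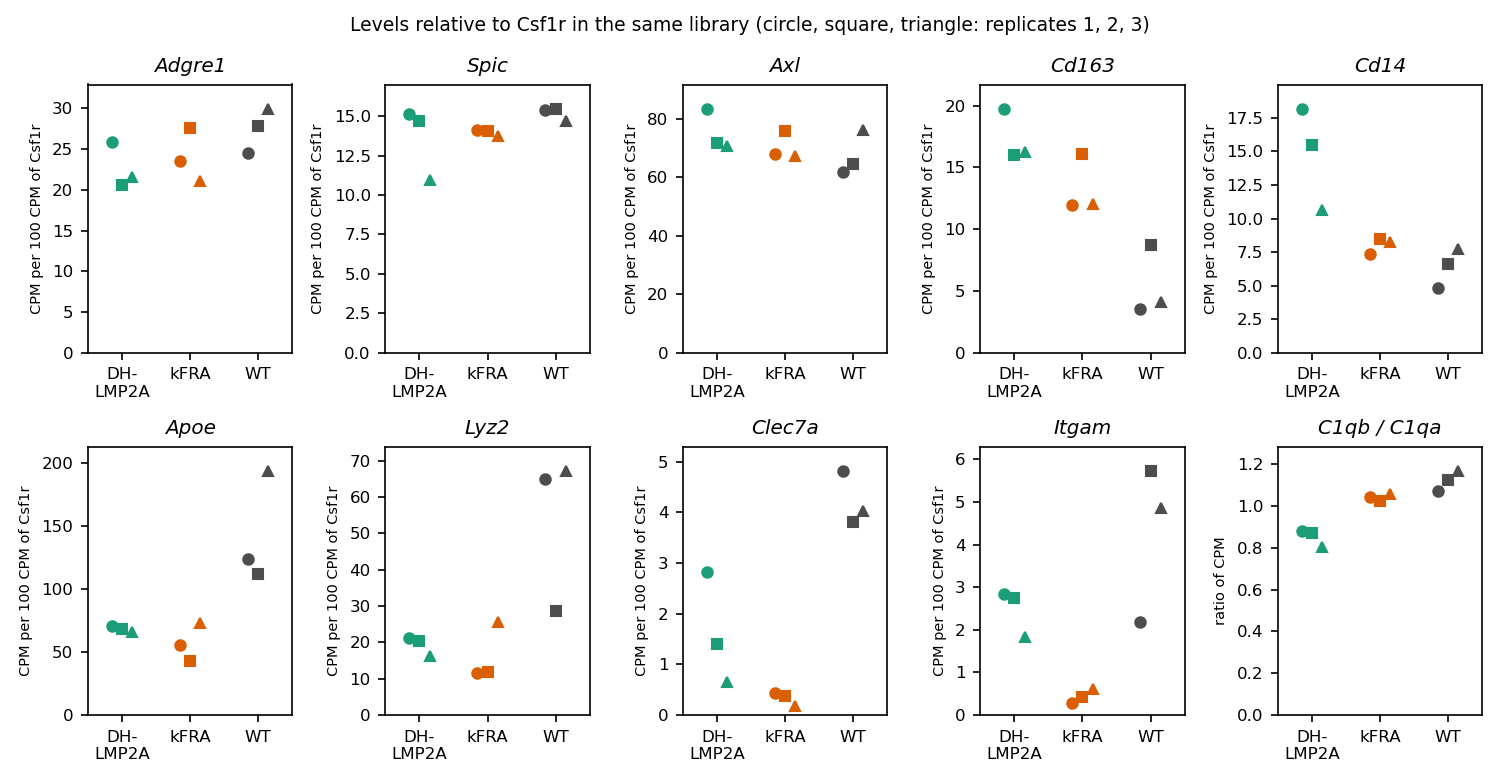
Level of 9 members per 100 CPM of Csf1r, and the ratio of C1qb to C1qa, in each library (axes from 0; 1 point per library). Adgre1 and Axl overlap between the genotypes, Cd163 and Cd14 have their highest means in DH-LMP2A, and Apoe, Lyz2 and Clec7a are highest in WT.

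The same question was put to the counts with a covariate for the macrophage content of each library, the median over 13 other macrophage genes of their centered log2 CPM, in a fit chosen after seeing the data. With this covariate 4 members were lower in kFRA than in WT (background 7.04%). They were Apoe (−1.51), Tlr2 (−0.99), Clec7a (−3.05) and Itgam (−3.17), with edgeR adjusted p = 0.0055, 0.0177, 0.00237 and 0.00166. In DH-LMP2A against WT 4 were lower (background 3.63%), namely Apoe (−1.37), Fcer1g (−0.94), Fcgr1 (−1.19) and Cx3cr1 (−2.40), and 1, Cd14, was higher (1.33, edgeR adjusted p = 0.00181, background 3.01%). In kFRA against DH-LMP2A 3 were lower (background 4.92%), namely Cd14 (−0.81), Clec7a (−2.30) and Itgam (−2.44). The calls of Cd5l, Tyrobp, Lyz2, Tlr2 and Itgax against WT were not among those of DH-LMP2A, and those of Cd5l, Tyrobp, Fcer1g, Fcgr1, Lyz2 and Cx3cr1 not among those of kFRA. The differences without a call were not all small. With the covariate Lyz2 was at −1.82 in kFRA (edgeR adjusted p = 0.0569) and −1.68 in DH-LMP2A (0.104), Cx3cr1 at −1.27 in kFRA, and Tlr2 at −0.71 and Itgax at −0.67 in DH-LMP2A. Cd5l was at −0.63 in kFRA and −0.77 in DH-LMP2A, Tyrobp at −0.45 and −0.67, and in kFRA Fcer1g was at −0.48 and Fcgr1 at −0.61. The covariate is itself lower in 5 of the 6 other libraries than in the lowest WT library (0.397), so that it and the genotype are partly confounded.

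Other genes of the same pathways were read from lists chosen by function. Their counts stand against the shares of all genes given above, which were 11.1% lower and 6.68% higher in kFRA and 7.3% lower and 5.07% higher in DH-LMP2A against WT, and in lists of this size a count of 1 gene is near those shares. Of 15 other macrophage genes 13 were tested, and their medians were −0.95 in kFRA and −1.02 in DH-LMP2A against WT. In kFRA 2 were lower, the lysosomal protease Lgmn (−0.95, edgeR adjusted p = 0.00581) and Ms4a7 (−1.97, edgeR adjusted p = 0.0196), and in DH-LMP2A 3 were lower, among them Ms4a7 (−2.73, edgeR adjusted p = 0.00629). In both, 1 gene was higher, Cd36, a scavenger receptor for lipids that B-lineage cells can also carry. Cd36 was at 587, 401 and 529 CPM in DH-LMP2A, 107, 208 and 93.5 CPM in kFRA and 23.2, 15.8 and 7.13 CPM in WT, with 3 separate ranges. It did not follow the macrophage genes.

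Among 10 myeloid transcription factors, 2 were lower in kFRA and 3 in DH-LMP2A than in WT, and none was higher. Besides Spi1 these were Irf8, a factor of monocytes and of B cells (−1.07 in kFRA, edgeR adjusted p = 0.00694, and −1.30 in DH-LMP2A, edgeR adjusted p = 0.00322), and in DH-LMP2A also Cebpb (−1.07, edgeR adjusted p = 0.0385). Of the ligands, kinases and phosphatases around Csf1r and the ITAM adaptors, 11 of 12 were tested, 5 were lower in kFRA and 4 in DH-LMP2A, and none was higher. Csf1, the ligand of Csf1r, was at 5.12, 5.71 and 1.14 CPM in DH-LMP2A, 1.44, 1.38 and 1.32 CPM in kFRA and 13.7, 13.2 and 9.23 CPM in WT (kFRA against WT −3.12, edgeR adjusted p = 0.00379). The phosphatase Ptpn6 was lower in kFRA (−1.05, edgeR adjusted p = 0.0053) and DH-LMP2A (−0.94, edgeR adjusted p = 0.01), and so was the kinase Lyn (−1.09, edgeR adjusted p = 0.0143, and −0.84, edgeR adjusted p = 0.0473). B-lineage cells express both as well. Summed B cell markers were 233 to 286 CPM in kFRA, 412 to 591 CPM in DH-LMP2A and 305 to 612 CPM in WT, and their part in these values was not tested.

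In the complement list, 10 of 12 genes were tested. In kFRA against WT 3 were lower, among them the anaphylatoxin receptor C5ar1 (−4.82, edgeR adjusted p = 0.00421) and Itgb2, the partner chain of Itgam and Itgax (−0.71, edgeR adjusted p = 0.0184), and 1 was higher, C2 (0.997, edgeR adjusted p = 0.00767). In DH-LMP2A against WT 1 was lower and 1 higher. Of 10 other monocyte genes, 5 were lower and 1 higher in kFRA than in WT, and 2 and 2 in DH-LMP2A. In kFRA 3 were lower than in DH-LMP2A (background 3.3%). Plac8 was higher in DH-LMP2A, and the gene higher in both comparisons with WT was Ly6c2, a surface antigen of classical monocytes and of plasma cells, at 2399, 2163 and 2107 CPM in DH-LMP2A, 3804, 2161 and 4026 CPM in kFRA and 447, 204 and 454 CPM in WT. The lists therefore did not move as 1 block.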

How the data were processed

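RNA of CD138-positive spleen cells of 9 mice was sequenced with a strand-specific mRNA kit, per the labels' protocols. The authors deposited raw counts per gene, 1 column per library, with the exon length of each gene. STAR 2.4.0a, featureCounts of Subread 1.5.0-p3 and the build mm10/GRCm38 are named in the submitters' processing notes. The strand setting and the treatment of multi-mapping reads are not given in the sources used here. All count columns were used. Genes were filtered with filterByExpr, scaled by TMM and tested with edgeR 4.0.16 (R 4.3.3) in its quasi-likelihood test, with 1 coefficient per genotype and all 9 libraries. Adjusted p-values are Benjamini-Hochberg values over 14199 genes, with a threshold of 0.05. Intervals are at 95%, and the floor of 3 counts covers counting error only. The procedure was tested on simulated data. Replicates differed beyond sampling noise (chi-square per degree of freedom 18.8 to 66.7 within DH-LMP2A, 19.7 to 151 within kFRA and 118 to 179 within WT). Alternatives were other scalings, filters, thresholds and covariates, a DESeq2 1.42.0 Wald test, and leaving out libraries.

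The members and lists were chosen with earlier results of these data known. All members are named. Values per library are given for called members whose highest genotype mean was 5 CPM or more and for the highest of each role, and for some others chosen after their values were seen. Of each other list at most the 3 genes with the smallest p in a comparison are named.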

Additional observations from a re-analysis of the deposited data

How the results depend on the processing

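Counts are given in the order kFRA against DH-LMP2A, kFRA against WT and DH-LMP2A against WT, where edgeR called 1, 10 and 9 members and 713, 2523 and 1756 genes. Members called were 0, 6 and 5 with library size alone, 3, 4 and 5 with the macrophage covariate, 6, 27 and 14 without both DH-LMP2A replicate 3 and kFRA replicate 2, and 0, 4 and 4 at an adjusted p under 0.01. In kFRA against DH-LMP2A they were 0 with Xist as a covariate and 0 with only the libraries compared. In DH-LMP2A against WT they were 14 with no filter, 17 with the DESeq2 Wald test and 17 with Xist as a covariate. Genes called were 1135, 1395 and 943 with the macrophage covariate and 306, 975 and 765 at an adjusted p under 0.01. They were 2815 and 5885 in the first and second comparison without both libraries, 1405 in the first with DESeq2, 1588 in the second at a fold of at least 2, and 1094 in the third at a mean of at least 5 CPM. The cause was not tested, except that a stricter threshold calls fewer genes by construction.

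Leaving out 1 library at a time gave 0 to 2, 5 to 17 and 5 to 12 members and 352 to 3299, 1271 to 5632 and 932 to 2364 genes. In the first comparison members were 2 without DH-LMP2A replicate 3 and 0 without DH-LMP2A replicate 1 or 2, kFRA replicate 1 or 3, or WT replicate 3. They were 17 without kFRA replicate 2 and 16 without DH-LMP2A replicate 3 in the second. They were 5 without kFRA replicate 1, kFRA replicate 3 or WT replicate 1 and 6 without WT replicate 2 in the second, and 5 without DH-LMP2A replicate 1 or WT replicate 2 in the third. The highest gene counts of the first and second comparison, 3299 and 5632, were those without kFRA replicate 2. Over 82 pairs of gene and comparison and 1633 values, 1400 kept their direction and side of the threshold, 154 were no longer past it, 77 were newly past it and 2 changed direction. These were C1qa (0.0409) and C1qc (0.0230) in kFRA against WT with the macrophage covariate, against −0.64 and −0.68.

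With the replicate number as a block, 3, 17 and 20 members and 685, 2930 and 2067 genes were called. The numbers belong to different mice, and deviations of libraries with the same number had correlations of −0.26 to 0.26, so the numbers were not taken to pair the samples. Of the 9 libraries, 3 were closest to their own number in both other genotypes.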
